A study of Mus musculus with 4 samples.

Results

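The regions described here are the bodies of 1494 long mouse genes whose RNA was near 0 in embryonic stem cells with and without the Tet enzymes. They were chosen by their level in RNA-seq: a gene symbol listed once on chromosomes 1 to 19, an interval of at least 20 kb, and under 0.05 FPKM in both RNA libraries. FPKM counts sequenced fragments per transcript, corrected for its length and for library depth. Each interval was trimmed by 5 kb at either end, had to hold at least 20 CpGs listed in both methylation files, and was left out if its symbol began with Olfr or Vmn, the odorant and vomeronasal receptor families. Of 22892 rows in the expression files, 9229 symbols were long, autosomal and outside those families, and 9184 of them held enough CpGs. FPKM was under 0.05 in both libraries for 1518, and 24 of these fell short on CpGs, which left 1494 silent bodies, or 16.3% of the long bodies. They held 836564 distinct CpGs, 5.91% of all listed autosomal CpGs.

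The cells were E14Tg2a, a mouse embryonic stem cell line. TetTKO cells had been made from it in 2i medium by transient transfection of CRISPR vectors against Tet1, Tet2 and Tet3, and viable clones were picked; the labels do not say how many clones the sequenced culture came from. Both lines were then kept for at least 17 days in serum culture (15% fetal bovine serum with LIF at 1000 units/ml), and the submitters describe 5-hydroxymethylcytosine as undetectable in the TetTKO cells. Each genotype had 1 whole-genome bisulfite library and 1 RNA-seq library, so no difference below has a replicate check and no test between genotypes was possible.

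Tet enzymes oxidise 5-methylcytosine to 5-hydroxymethylcytosine and further products, a route by which DNA methylation can be removed. In mammals most CpGs inside genes are methylated, in transcribed and untranscribed genes alike, while CpG-rich stretches at many gene starts are not. Bisulfite sequencing reads 5-methylcytosine and 5-hydroxymethylcytosine alike, so the methylation level here is their sum. It is also an average over the cells of a culture, so fewer methylated cells and less methylation per cell cannot be told apart.

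The RNA libraries carried the transcripts of pluripotent cells, with Pou5f1 at 1178 FPKM in WT and 1092 in TetTKO and Sox2 at 191.6 and 187.2. Nanog was lower in TetTKO, at 116.3 FPKM in WT and 71.0 in TetTKO. The targeted genes were at 15.1 and 4.36 FPKM for Tet1, 14.9 and 4.13 for Tet2, and 0.32 and 0.27 for Tet3. The methylation libraries held 131671740 read calls in WT and 148888474 in TetTKO on autosomal CpGs, of which 7439017 and 8399228 lay in silent bodies. A read call is one read scored at one CpG. The median silent body was covered 8.71 times per CpG in WT and 10.1 times in TetTKO.

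The promoters of 4 silent genes show CpG-rich and CpG-poor starts. They belong to the gene whose body rose most (Hoxd3) and, among bodies with at least 100 CpGs and 1000 calls per library, to another of the 6 largest rises (Tlr5) and to a pair of the 6 largest falls (Gpr137c and Tecrl). Each runs from 250 bases before to 50 bases after a start in RefSeq (GRCm38.p6), read 5′ to 3′ on the gene's strand, with CpGs in capitals:
Hoxd3: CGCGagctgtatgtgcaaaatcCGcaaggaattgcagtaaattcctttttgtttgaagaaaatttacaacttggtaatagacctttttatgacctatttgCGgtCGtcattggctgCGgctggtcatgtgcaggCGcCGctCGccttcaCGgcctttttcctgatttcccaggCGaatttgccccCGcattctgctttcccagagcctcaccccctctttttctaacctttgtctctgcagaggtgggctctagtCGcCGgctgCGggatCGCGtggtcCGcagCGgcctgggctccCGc
Tlr5: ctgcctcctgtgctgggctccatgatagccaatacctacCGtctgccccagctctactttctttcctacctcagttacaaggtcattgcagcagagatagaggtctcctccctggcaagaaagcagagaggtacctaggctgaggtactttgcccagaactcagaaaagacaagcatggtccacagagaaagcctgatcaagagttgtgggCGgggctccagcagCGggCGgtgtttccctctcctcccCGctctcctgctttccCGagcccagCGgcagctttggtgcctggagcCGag
Gpr137c: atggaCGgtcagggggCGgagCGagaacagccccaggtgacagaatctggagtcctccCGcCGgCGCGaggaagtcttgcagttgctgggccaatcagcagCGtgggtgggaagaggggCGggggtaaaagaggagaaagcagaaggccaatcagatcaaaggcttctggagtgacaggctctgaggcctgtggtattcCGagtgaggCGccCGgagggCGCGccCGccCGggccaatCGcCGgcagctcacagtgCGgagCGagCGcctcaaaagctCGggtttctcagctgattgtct
Tecrl: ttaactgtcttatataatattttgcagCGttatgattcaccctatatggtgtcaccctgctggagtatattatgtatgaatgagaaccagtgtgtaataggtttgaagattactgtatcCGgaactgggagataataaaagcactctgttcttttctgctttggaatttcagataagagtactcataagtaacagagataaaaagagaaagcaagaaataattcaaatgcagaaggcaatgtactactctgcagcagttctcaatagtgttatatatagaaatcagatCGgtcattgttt

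Hoxd3 (chr2:74711743-74712042, plus strand) had 20 CpGs in these 300 bases and Gpr137c (chr14:45219467-45219766, plus strand) had 22. At least as many were found in 28.8% and 25.2% of the 27025 genes in the promoter table, taking for each gene the start with most CpGs. Tlr5 (chr1:182954538-182954837, plus strand) had 8, the median of all genes, and Tecrl (chr5:83355146-83355445, minus strand) had 3, a number that 30.3% of genes did not exceed. Promoter coordinates are in a later build than the methylation files (mm9) and were not carried over. The ends of the mm9 intervals were read instead.

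The outermost 1 kb on the side where each of these genes starts differed widely. For Gpr137c, 0 of 770 WT read calls at 85 CpGs were methylated, and TetTKO had 0.942% of 743 calls. The WT count allows a level of up to about 0.39%, an approximate limit from the number of calls and not an exact interval. Hoxd3 had 2.12% of 377 WT calls at 47 CpGs and 10.3% of 359 TetTKO calls. Tlr5 had 40.7% and 66.4% at 18 CpGs, and Tecrl 63.2% and 58.0% at 9 CpGs. A gene could therefore be silent with an unmethylated or a methylated end. A count of promoter CpGs over all silent genes was void, because only 1113 of 1494 symbols (74.5%) matched the promoter table, below the 80% required.

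Silent bodies were highly methylated in WT and lower in TetTKO. The median body had 78.8% methylated calls in WT, with a range of 20.3% to 89.8% and an SD over bodies of 7.24 points, and 71.4% in TetTKO, with a range of 25.4% to 84.6% and an SD of 6.13. The median of the differences was -7.17 percentage points, and its middle 50% ran from -9.15 to -5.15. WT methylation exceeded 80% in 575 silent bodies (38.5%), against 28.1% of all long bodies. TetTKO methylation did so in 6 (0.402%), against 0.414%. Over the distinct CpGs together, 77.6% of WT calls and 70.7% of TetTKO calls were methylated, against 69.3% and 64.8% at all listed autosomal CpGs.

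The fall touched nearly every silent body. TetTKO was lower in 1436 of 1494 (96.1%), against 86.4% of all long bodies. It was lower by at least 10 points in 243 (16.3%), against 8.08% of all long bodies, and higher by at least 10 points in 4 (0.268%), against 1.11%. Silent bodies were also poorer in listed CpGs, with a median of 5.55 per kb against 7.31 in all long bodies. The counting half-width of a body's difference had a median of 2.54 points. It is approximate, the exact 95% binomial half-widths of WT and TetTKO being combined as the root of their summed squares. Differences exceeded that half-width downward in 1314 silent bodies and upward in 25, counts that are not given here for all long bodies. These intervals cover counting error only, and they are too narrow even for that, since one read can score several CpGs and PCR copies are not independent molecules. In the plot of TetTKO against WT methylation the silent bodies form one cloud below the line of equality, with a thin tail of CpG-dense bodies at low WT levels.

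**Figure D1:**
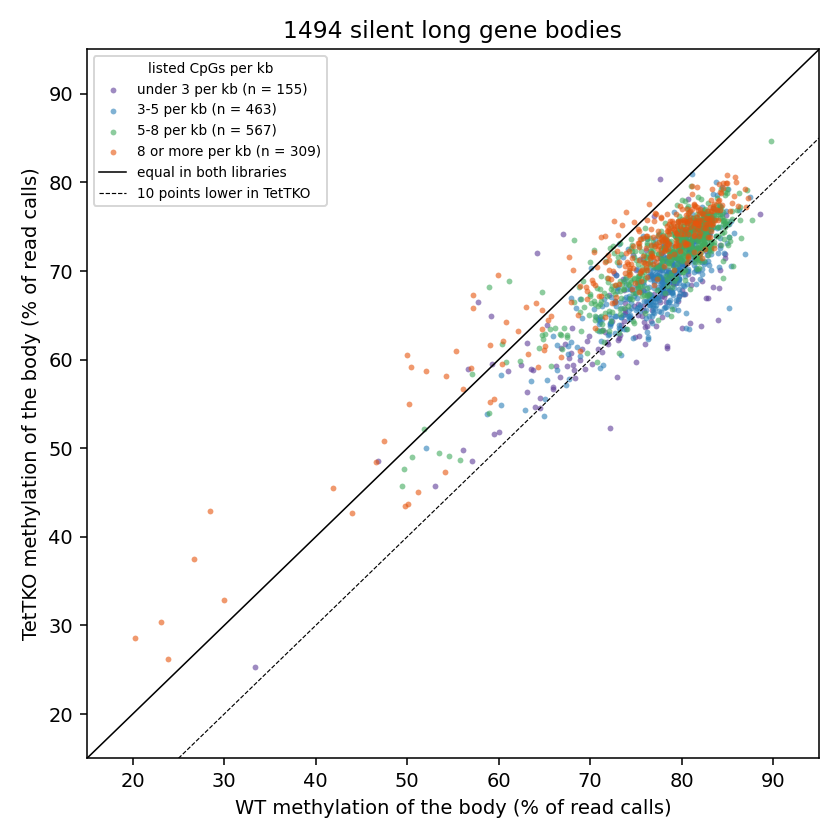
Methylation of 1494 silent long gene bodies in TetTKO (vertical, % of read calls) against WT (horizontal, % of read calls), one point per body, coloured by listed CpGs per kb. The solid line marks equal levels and the dashed line a fall of 10 points; 1436 points lie below the solid line, and the 5 bodies under 29% in WT lie above it.

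The FPKM threshold did not mark a step in methylation. The 169 silent bodies at exactly 0.04 FPKM in their higher library had medians of 77.8% and 71.2%, with a median difference of -6.29 points. The 148 long bodies just outside, at exactly 0.05, had 77.5% and 71.7%, with -6.23. Bodies listed at 0 in both libraries (592) had 79.0% and 71.0%, with -7.77, and they were also poorer in CpGs, with a median of 4.99 per kb against 5.55 over all silent bodies. FPKM is rounded to 2 decimals and the depth of the RNA libraries is unknown, so a value of 0 is a listing and not a proof of no transcript.

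The fall was smaller in bodies with more CpGs per kb. Silent bodies with under 3 listed CpGs per kb (155) went from a median of 75.7% to 66.0%, with a median difference of -9.38 points. Those with 3 to 5 per kb (463) went from 78.5% to 69.6%, with -8.64. Those with 5 to 8 per kb (567) had the highest WT median, 80.1%, and went to 72.9%, with -6.77. Those with 8 or more per kb (309) went from 78.1% to 73.3%, with -4.71. The TetTKO medians thus rose with CpG number through all 4 classes while the WT medians did not. With a coverage of at least 10 required, which also lowers the listed CpG number, the 4 median differences were -7.74, -5.99, -3.08 and -3.71, so the last pair changed order.

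Falls of at least 10 points were found in 62 of the 155 sparsest bodies (40%), 120 of the next 463 (25.9%), 57 of 567 (10.1%) and 4 of the 309 densest (1.29%). Long bodies of at least 10 FPKM in both libraries had shares of 21.4% (14 bodies), 21.0%, 6.09% and 1.01%. Long bodies neither silent nor at that level had 42.3%, 24.2%, 4.87% and 0.739%, near the silent shares where CpGs were few. Of the 58 silent bodies that were higher in TetTKO, 38 had 8 or more CpGs per kb. Median coverage of silent bodies was similar across the CpG classes, between 8.35 and 8.80 in WT and between 9.77 and 10.2 in TetTKO. Hoxa3 was the densest silent body, at 18.6 per kb.

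Interval length mattered less. Median differences were -7.08 points at 20 to 50 kb (722 bodies), -6.95 at 50 to 100 kb (340), -6.88 at 100 to 200 kb (203), -7.48 at 200 to 500 kb (151) and -8.19 over 500 kb (78). The longest class was also the poorest in CpGs, with a median of 3.76 per kb against 5.76 in the shortest. At 3 to 5 CpGs per kb the medians of the shortest and the longest class were -9.07 and -8.87, and at 5 to 8 per kb they were -6.86 and -6.65. The median of the longest 20% of bodies minus that of the shortest 20% was -0.36 points, against -1.11 between the outer length classes; with at least 100 CpGs required the latter was -2.09. What length did change was the spread: the SD of the difference over bodies was 4.50 points at 20 to 50 kb and 2.27 over 500 kb, where each body averages many more CpGs.

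**Figure D2:**
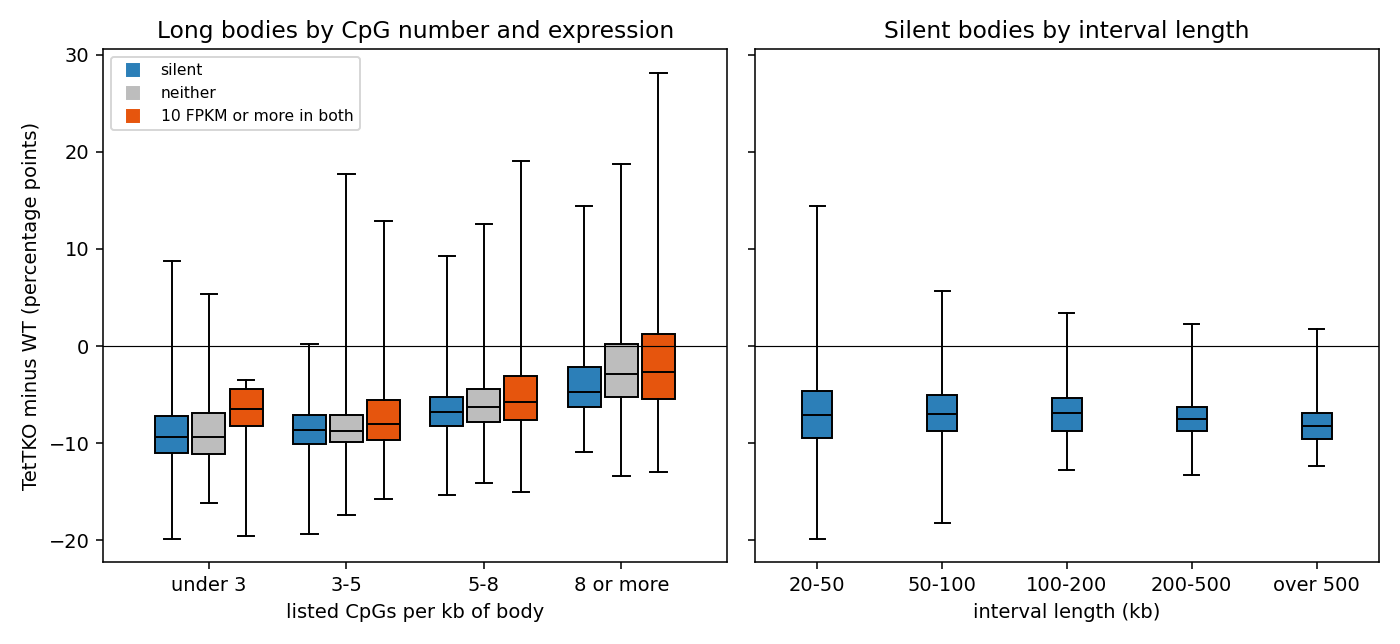
TetTKO minus WT methylation of long gene bodies (percentage points). Left, by listed CpGs per kb for silent bodies, bodies of at least 10 FPKM in both libraries and bodies of neither class; right, silent bodies by interval length in kb. Lines mark medians, boxes the quartiles and whiskers the lowest and highest body; silent medians climb from -9.38 to -4.71 with CpG number and stay between -8.19 and -6.88 across lengths.

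The same order held at the scale of single CpGs. Each CpG of a silent body was classed by the number of listed CpGs in its own 1 kb window. With 1 or 2 CpGs in the window, TetTKO methylation was 65.4% against 74.9% in WT, that is, -9.44 points. The difference was -8.97 with 3 to 5, -7.42 with 6 to 10 and -5.22 with 11 to 15 CpGs. With over 15 CpGs it was -0.72, from 66.0% to 65.2%, and these windows held 71581 CpGs. That value averages windows of low and high WT level that moved in opposite directions, given apart below. CpG number was the number listed, which depends on coverage as well as on sequence.

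The order was also seen within genes of like CpG number. Inside bodies of 8 or more CpGs per kb the difference still ran from -8.48 points in windows of 1 or 2 CpGs to 0.0067 in windows of over 15. Inside bodies of under 3 per kb it ran from -10.2 to 2.23. The 5 steps followed the same order in 3 of the 4 gene classes; in bodies of 5 to 8 per kb the first pair was swapped, with -7.90 and then -8.10.

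**Figure D3:**
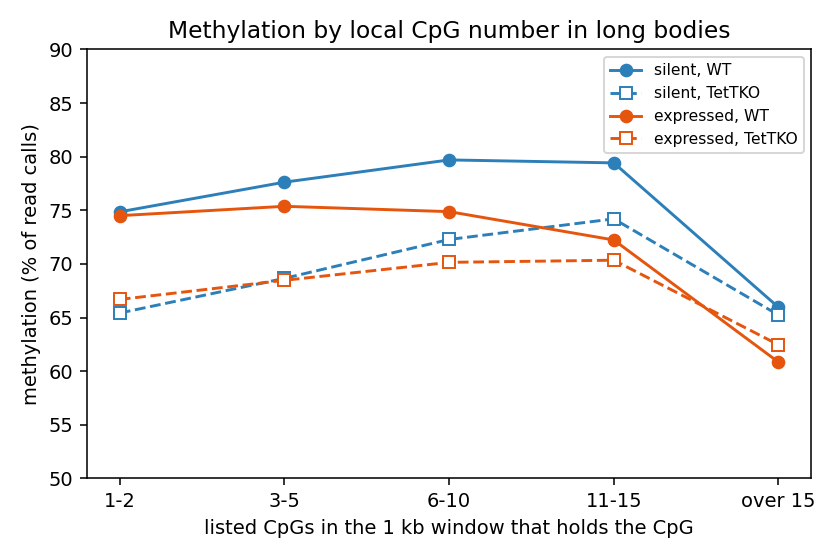
Methylation of CpGs in long gene bodies (% of read calls, axis from 50 to 90) by the number of listed CpGs in their 1 kb window, in silent bodies and in bodies of at least 10 FPKM, for WT (filled) and TetTKO (open). The gap between the silent lines (TetTKO minus WT) goes from -9.44 points at 1-2 CpGs to -0.72 points at over 15.

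Silent bodies were set beside 2128 long bodies of at least 10 FPKM in both libraries, chosen by the same RNA values. Expressed bodies went from a median of 75.7% in WT to 70.3% in TetTKO, with a median difference of -4.89 points, so the silent median lay 2.28 points lower. All 9184 long bodies together had 76.9%, 71.0% and -5.57. Expressed bodies were richer in CpGs, with a median of 7.42 per kb. Within classes of CpG number the medians of silent and expressed bodies were -8.64 and -8.001 at 3 to 5 per kb, -6.77 and -5.75 at 5 to 8, and -4.71 and -2.72 at 8 or more. Under 3 per kb they were -9.38 and -6.44, the second over 14 expressed bodies only. Weighted to the silent bodies' CpG classes, the contrast was -1.30 points in place of -2.28, with those 14 bodies included. Expressed bodies also held more 1 kb windows at 10 to 50% in WT, 8.66% against 2.93% in silent bodies. With windows under 50% in WT left out, the contrast was -1.67 points.

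The 5562 long bodies that were neither silent nor expressed came closer to the silent ones where CpGs were few. At 3 to 5 per kb their median difference was -8.71, next to -8.64 in silent bodies, and at 8 or more per kb it was -2.89, next to -4.71. Silent medians lay below expressed medians on 19 of 19 autosomes, with differences of -3.81 to -1.17 points. Within CpG classes this was so on 16 autosomes at 3 to 5 per kb, 17 at 5 to 8 and 19 at 8 or more. Autosomes of 1 library pair share that pair and are not replicates. The silent medians themselves lay between -7.92 and -6.61 points on every autosome.

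The ends of silent genes were less methylated than their bodies, and less changed. In the outer 5 kb inside the interval, 66.1% of WT calls and 63.0% of TetTKO calls were methylated, which gave -3.11 points against -6.96 in the bodies. Within 0.5 kb of an end the levels were 46.7% and 47.4%, and from 3 to 5 kb they were 74.5% and 69.1%. Beyond 200 kb from either end they were 77.7% and 69.6%, a difference of -8.12. Only the longest genes hold CpGs that far in, so the steps of distance rest on different sets of genes. In expressed genes the outermost 0.5 kb had 11.2% and 11.3%, and the outer 5 kb differed by -0.417 points against -3.34 in the bodies. Start and end were not separated, because the interval files give no strand.

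**Figure D4:**
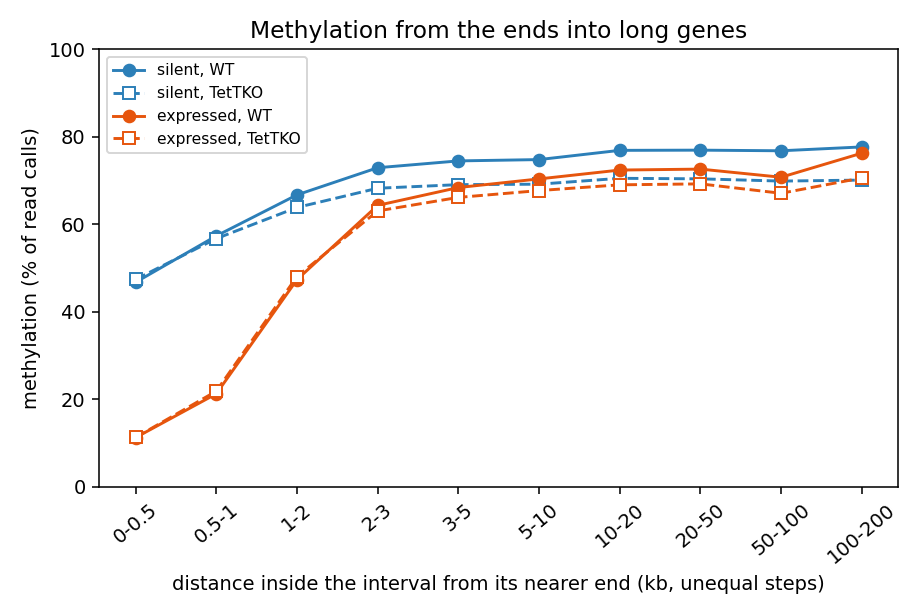
Methylation (% of read calls) inside long genes by distance from the nearer end of the interval (kb, unequal steps up to 200 kb), for silent genes and genes of at least 10 FPKM, in WT (filled) and TetTKO (open). In silent genes the level climbs from 46.7% in the outer 0.5 kb to 74.8% at 5 to 10 kb in WT, and the libraries part after the first kb.

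Flanking DNA moved in the same direction as the silent bodies. From 5 to 25 kb outside the intervals, 71.2% of WT calls and 66.3% of TetTKO calls were methylated, a difference of -4.82 points. Outside every listed gene the flanks had 73.7% and 68.1%, with -5.63, so the excess of the body's fall over the flank's was -2.14 points with all flanks and -1.34 with intergenic ones, an alternative chosen after the data were seen. Expressed genes had the same order, with 72.0% in bodies and 61.0% in flanks in WT, and differences of -3.34 and -2.30 points. Gene by gene, the body was more methylated than its flanks in 912 of 1491 silent genes in WT and in 880 in TetTKO. The flanks were lower in TetTKO for 1381 of them, with a median flank difference of -6.47 points next to -7.17 for the same bodies. No such gene-by-gene counts are given here for other long genes.

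The longest silent genes named here were all lower in TetTKO. Csmd1 (mm9 chromosome 8, 15892544 to 17535385), a very large membrane protein with CUB and sushi domains, held 4831 CpGs and had 73.8% in WT and 65.2% in TetTKO. Nrxn3 (chromosome 12, 89961319 to 91573373), a presynaptic adhesion molecule, had 77.8% and 70.2%. Ctnna3 (chromosome 10, 62892845 to 64466415), an alpha-catenin of heart and testis, had 72.9% and 64.9%. Their differences of -8.63 to -7.59 points were more than 10 times their counting half-widths of 0.537 to 0.623.

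Rbfox1 (chromosome 16, 5884885 to 7412573), a splicing factor of neurons and muscle, had the smallest fall among them, from 72.6% to 66.4%. Dlg2, a postsynaptic scaffold, went from 75.9% to 66.6%. Agbl4, a carboxypeptidase that trims polyglutamate chains, went from 76.7% to 67.0%, and Lingo2, a leucine-rich repeat membrane protein, from 77.4% to 67.1%, the largest fall among them at -10.3 points.

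Most stretches of long silent genes were lower. Cut into 10 kb bins, the 224 silent genes of at least 200 kb gave 9967 bins, of which 95.5% were lower in TetTKO, and in 62 genes every bin was lower. Csmd1 was lower in 132 of 136 bins and Nrxn3 in 150 of 155. Rbfox1 was lower in 127 of 139. The lowest shares were in Pebp4 (12 of 21 bins) and Pcdha4-g (53 of 82), picked for those shares, and bins of other long genes were not counted. The median SD over the bins of a gene was 5.63 points in WT and 5.25 in TetTKO.

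Silent genes were grouped by symbol, and counts of lower bodies in each group stand beside 96.1% for all silent bodies and 86.4% for all long ones. Of 22 long glutamate receptor genes 11 were silent, against 16.3% of all long bodies, a share set by the choice on FPKM. All 11 were lower, with a median difference of -8.92 points; Grm5, a metabotropic receptor, had 76.7% in WT and 64.3% in TetTKO, and Gria1, an AMPA receptor subunit, 79.3% and 72.0%. The 7 GABA and glycine receptor genes had a median difference of -8.39, with Gabrb2 going from 79.7% to 68.6%. The 17 genes of synaptic and axonal adhesion had -8.96, with Cntn5, a contactin, going from 79.7% to 69.2%. Cadherins and protocadherins outside the clusters (10) had -9.18, and 9 were lower; the exception was Cdh22, from 60.8% to 64.3%, a body of 10.8 CpGs per kb. The 32 voltage-gated channel genes were all lower, with -6.56; Cacna1c, the pore of a cardiac and neuronal calcium channel, had 9.59 CpGs per kb and went from 79.0% to 74.8%. These medians stand beside -5.57 for all long bodies and -7.17 for all silent ones. Over the long bodies of each group, silent or not, medians were -7.83 for glutamate receptors and -8.42 for GABA and glycine receptors. They were -8.425 for synaptic and axonal adhesion, -8.15 for cadherins and protocadherins and -6.06 for voltage-gated channels.

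Genes of transport and metabolism were mostly lower too. Of 67 silent solute carriers 65 were lower, with a median difference of -7.01 points; Slc9a9, a sodium-proton exchanger, went from 80.8% to 74.1%. All 10 ABC transporters were lower, with -8.17; Abca12, a lipid transporter of skin, went from 83.1% to 74.7%. Of 28 cytochrome P450 genes 27 were lower, with -6.84 and a range of -13.0 to 7.87. Cyp2c40 had 77.9% in WT and 64.8% in TetTKO, while Cyp3a44 had 64.2% and 72.1%. All 17 UDP-glucuronosyltransferase and sulfotransferase genes were lower, with -6.00, and Ugt1a9 and Ugt1a10 share most of their interval, so their values of 72.7% and 66.7% and of 72.7% and 66.6% are nearly one measurement. Members of such families have near-identical copies between which reads can be split, so single values are uncertain.

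Immune genes included some with sparse listings, and their shares of lower bodies were near that of all silent bodies or below it. The 9 C-type lectin and killer lectin receptor genes were all lower, by -13.2 to -6.23 points, and the 12 cytokine and cytokine receptor genes had a median difference of -8.16 and were all lower; Il23r, a subunit of an interleukin receptor, went from 80.3% to 69.0%. Of 18 genes grouped by symbol as immunoglobulin-like leukocyte receptors 15 were lower, a smaller share than in all silent bodies, with -7.15. Cd36, a scavenger receptor placed in this group by its symbol alone, went from 71.3% to 60.9%. Skint5 held only 33 listed CpGs in 521.6 kb (0.0645 per kb), and its 46.8% and 48.5% rest on 278 and 274 calls, with a difference of 1.78 points inside its counting half-width of 8.55. Klra22, a killer lectin receptor, held 314 CpGs in 408.7 kb and went from 56.1% to 49.8%. Il23r and Klra22 lie on chromosome 6, as do Cacna1c and Hoxa3, where WT coverage was 1.33 times that of the median autosome and TetTKO coverage 0.977 times; the part of this imbalance in their values was not tested.

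In the remaining groups the shares of lower bodies were again close to that of all silent bodies. All 25 G protein-coupled receptors were lower, with -7.61; Oprm1, the mu opioid receptor, went from 78.1% to 70.5%. All 7 genes of sarcomere and muscle proteins were lower, with -7.31, as were 6 collagens (-6.86), 13 ADAM and ADAMTS genes (-7.46), 12 dynein, Spag and Ccdc genes (-6.44), 5 serpins (-9.45) and 6 zinc finger genes (-7.48). Of 116 long zinc finger genes 6 were silent, against 16.3% of all long bodies, a share again set by the choice on FPKM. The 416 predicted and RIKEN genes, the largest group, had a median of -7.26, and 393 were lower.

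**Figure D5:**
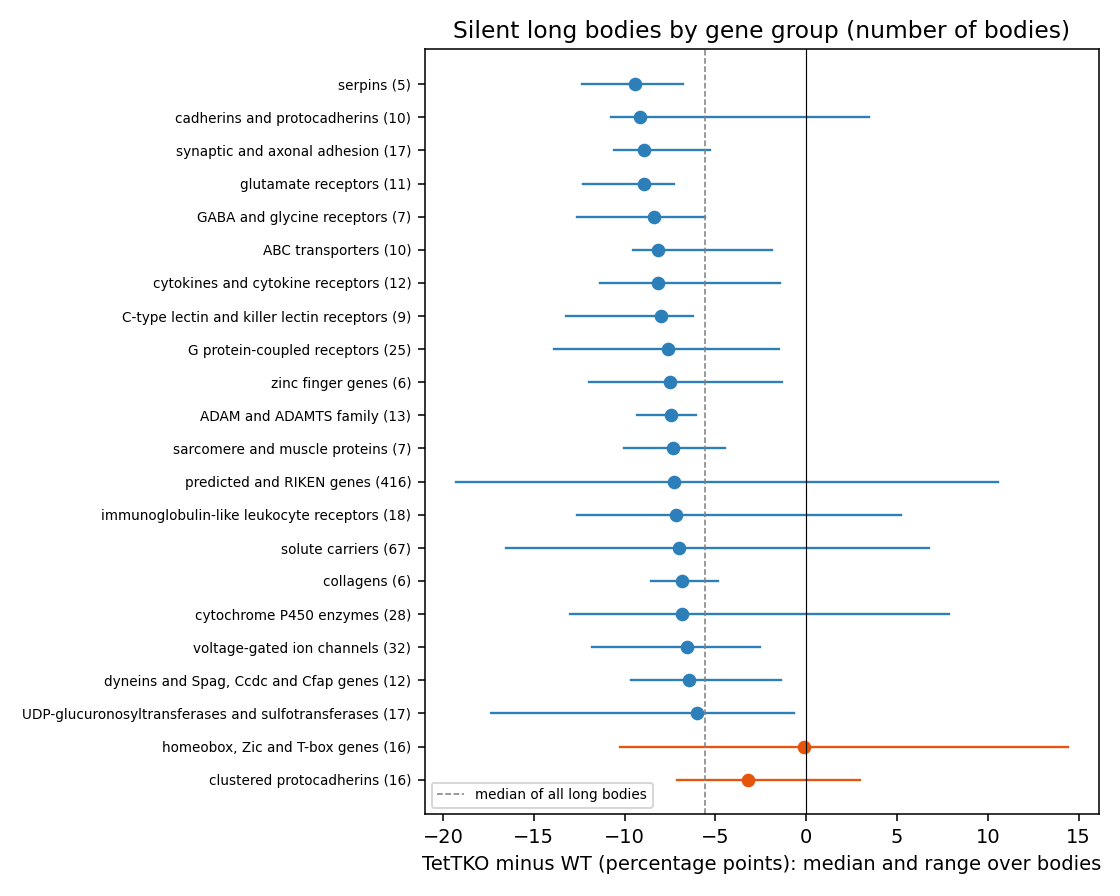
TetTKO minus WT methylation (percentage points) of silent long bodies by gene group, with the number of bodies in parentheses. Points are medians, lines run from the lowest to the highest body, the dashed line is the median of all 9184 long bodies (-5.57), and the bottom pair (orange) was grouped after values were seen; 20 group medians lie left of the dashed line and the homeobox, Zic and T-box median lies at -0.11.

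Developmental transcription factors held the 5 least methylated silent bodies; they were grouped after values were seen, so their values are a description. The 16 homeobox, Zic and T-box genes had a median of 68.0% in WT and 64.0% in TetTKO, 8 were lower, the median of their differences was -0.11 points, and their median CpG number was 9.11 per kb. Their WT levels ran from 20.3% to 81.0%. All 66 long bodies of this group, silent or not, had a median difference of -2.50 points. Zic4 (chromosome 9, 91263809 to 91284186), a zinc finger factor of the cerebellum, had 20.3% and 28.6%. Hoxa3 (chromosome 6, 52119060 to 52163066), which patterns the neck and throat, had 23.1% and 30.4%, and Hoxd3 (chromosome 2, 74550049 to 74586328) had 28.5% and 42.9%, the largest gain of any silent body.

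Other members of this group ranged from gains to falls. Lhx9, a LIM homeobox factor of the gonad, had 26.7% and 37.5%. Onecut3 had 23.8% and 26.3%, a difference of 2.41 points inside its counting half-width of 3.08. Zfhx4, with 4.01 CpGs per kb, went from 79.5% to 69.2%, and Prrx1, with 6.22 per kb, from 81.0% to 73.2%. The 16 clustered protocadherin bodies of chromosome 18 overlap one another. They had 51.5% in WT and 48.2% in TetTKO, with -3.20, and 14 were lower. All 37 long clustered protocadherin bodies, silent or not, had a median difference of the other sign, 2.60 points.

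Among bodies with at least 100 CpGs and 1000 calls per library (1144), the 6 largest gains were in Hoxd3, Lhx9, Zic4, Tlr5, Gm12709 and Gm12298. Tlr5, the receptor of bacterial flagellin, had 50.5% in WT and 59.2% in TetTKO. Gm12709 had 59.9% and 69.6%, and Gm12298 had 61.2% and 68.8%. The largest falls were in 4930548K13Rik (chromosome 4, 26562966 to 26632596), from 78.4% to 61.5%; Ostn, a peptide hormone of bone and muscle, from 80.5% to 65.3%; and Tecrl, a reductase-like protein of heart muscle, from 76.0% to 61.7%. Slco6c1, an organic anion transporter of testis, had 76.3% and 62.6%, Gpr137c had 79.1% and 65.7%, and Daf2, a complement regulator, had 84.5% and 71.2%. All 6 had between 2.48 and 5.68 CpGs per kb, and their falls of 13.3 to 16.9 points stand beside counting half-widths of at most 3.65; they were ranked by the difference itself, so their sizes are a description.

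Under the same limits of 100 CpGs and 1000 calls, the highest WT levels were found in genes of 29.2 to 41.1 kb with 6.47 to 9.41 CpGs per kb. Muc5b, a gel-forming mucin of the airways, went from 87.0% to 77.2%, and its neighbour on chromosome 7, Muc5ac, from 86.3% to 78.8%. 4933406K04Rik had 86.9% and 79.3%. Rp1l1, a protein of photoreceptors, had 86.4% and 77.3%, and Adamtsl2, a matrix protein, 86.2% and 77.3%. The counting intervals of the 5 WT levels overlapped and lay between 84.3% and 88.7%.

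Silent bodies were also cut into 1 kb windows with at least 5 CpGs and 40 calls in each library. Of 68302 windows, 57.8% were above 80% methylated in WT and 21.6% in TetTKO, against 53.5% and 20.8% of the windows of all long bodies. TetTKO was at least 30 points higher in 213 windows (0.312%), against 0.701% of the windows of all long bodies, and at least 30 points lower in 439 (0.643%), against 0.431%. With at least 10 CpGs per window the balance turned, to 120 windows higher (0.58%) and 19 lower (0.092%) of 20703. In all long bodies the higher windows outnumbered the lower ones at both limits, with 1.08% higher and 0.068% lower at 10 CpGs. Single windows rest on few calls, as the extremes show.

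The largest gain was in 1700011I03Rik, in a window of chromosome 18 (57711000 to 57711999) with 6 of 55 calls methylated in WT and 67 of 84 in TetTKO. Pde7b, a cyclic nucleotide phosphodiesterase, had a window (chromosome 10, 20130000 to 20130999) that went from 6.25% to 70.9%, while its whole body went from 81.8% to 74.9%. Ptprb, a receptor phosphatase of blood vessels, had the best covered of these windows, with 23 CpGs, from 23.2% of 185 calls to 78.3% of 175. C1qtnf1 (25.5% to 79.0%) and 9330175M20Rik (31.5% to 82.8%) followed. Among the largest losses were those in Adarb2 (91.1% to 45.5%), Agmo (38 of 40 calls to 27 of 54), Pcdh9 (88.1% to 43.5%) and Nckap5 (93.0% to 49.0%), each in a window of 5 or 6 CpGs. These windows were ranked by the difference itself, so their sizes are a description.

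Windows were then classed by WT level on their odd-numbered CpGs and compared on the even-numbered ones. Windows above 80% in WT (35348) differed by -8.20 points on average and those at 50 to 80% (22645) by -5.32. With classes from TetTKO CpGs this order turned, to -4.26 and -7.57. The 232 windows under 10% were 8.24 points higher in TetTKO, from 7.76% in WT, a difference that was 0.997 with classes from TetTKO and 5.98 with classes from the first 300 bp. Windows at 10 to 50% (2271) differed by 6.199, but this sign turned when the class came from TetTKO CpGs (-3.95) or from another stretch of the window (-0.12). Within that level, windows of over 15 CpGs kept a positive difference under each of these choices, with 12.7, 7.42 and 4.24. Windows of over 15 CpGs at above 80% (1808) kept a negative one, with -6.07, -2.43 and -4.71. Those under 10% (155) had 7.14, 2.43 and 7.06. In expressed bodies, classed on WT only, all windows above 80% differed by -7.79 points and those at 10 to 50% by 13.3.

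Windows under 10% in WT were present in 121 silent bodies. They made up 0.332% of the windows of silent bodies, against 0.775% in all long bodies. The 1373 bodies without one had a median difference of -7.36 points, the 73 with 1 had -5.35, the 28 with 2 to 4 had -3.43 and the 20 with 5 or more had -2.99. Median CpG number rose in the same order, with 5.42, 7.24, 7.38 and 8.19 per kb, and its part in these steps was not tested. Many of the 20 bodies are clustered protocadherins. Among the rest were Hoxa3 with 7 such windows, Pax7 with 5 (56.1% and 56.7%) and Runx2, a bone transcription factor, with 5 (68.8% and 65.4%). Of the 58 silent bodies that were higher in TetTKO, 23 held a window under 10%.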

How the data were processed

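Per the submitters' processing notes, Trim Galore, Bismark 0.7.9, Bowtie, SAMtools, TopHat2 2.0.2 and Cufflinks 2.0.2 were used on the mm9 build; which gene models they used is not given in the sources used here. For every CpG covered at least 5 times, the deposited methylation files give its methylated fraction, its methylated read counts and its total read counts. The deposited expression files give FPKM per symbol, rounded to 2 decimals, with an interval and no strand.

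A body's methylation was the summed methylated calls over the summed calls at its listed CpGs, in percent. Differences are TetTKO minus WT. No p-value was computed, since bodies, CpGs and windows are not replicates. Exact 95% binomial intervals were used for levels, and those of WT and TetTKO were combined approximately for differences. CpG windows were fixed 1 kb bins. Flanks lay 5 to 25 kb outside the intervals. The calculation was tested on simulated independent calls at the real coverage, which checks the summing and not the differences reported. Python 3.11.15, numpy 2.4.6, pandas 2.3.3 and scipy 1.17.1 were used.

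The silent genes and the gene groups were chosen with earlier results of these data known. Genes were named by rule: the 8 longest; among bodies with at least 100 CpGs and 1000 calls per library, the 5 highest and 5 lowest in WT and the 6 largest falls and gains; the longest 2 of each group (not all are printed); and the genes of the 5 largest window gains and losses. Cdh22, Grm5, Gria1, Cyp2c40, Cyp3a44, Zfhx4, Prrx1, Pax7, Pebp4, Pcdha4-g and Runx2 were named after their values were seen. Some genes that these rules name are not reported here. Promoter sequences are from RefSeq.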

Additional observations from a re-analysis of the deposited data

How the results depend on the processing

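The median difference of -7.17 points moved to -7.01 with the mean of CpG fractions, -7.67 with a coverage of at least 10, -7.77 at 0 FPKM in both, -7.00 under 0.1 FPKM, -6.96 with at least 100 CpGs and -7.61 without windows under 50% in WT. The share of silent bodies at least 10 points lower, 16.3%, became 13.9% with the mean of fractions, 22.2% with that coverage, 21.3% at 0 FPKM, 12.5% with 100 CpGs, 18.3% without those windows and 12.7% for intervals of at least 50 kb. The share at least 10 points higher became 0.68% with a trim of 10 kb. The contrast with expressed bodies (-2.28) was -2.89 at 0 FPKM, -1.88 at 50 kb, -1.67 without windows under 50%, -2.87 against bodies of 30 FPKM and -1.30 weighted by CpG class. The CpG contrast, under 3 minus 8 or more per kb (-4.67), was -3.75 at 0 FPKM, -3.84 with the 10 kb trim and -3.64 without windows under 50%. The length contrast (-1.11) was -2.09 with at least 100 CpGs and -0.36 by quintiles. Windows above 80% differed by -4.26 with classes from TetTKO and -6.23 with classes from the first 300 bp; those at 10 to 50% reversed, to -3.95 and -0.12, those under 10% (8.24) became 0.997 and 5.98, and those at 50 to 80% (-5.32) became -7.57 and -5.18. Window gains (213) were 723 at 20 points, 54 at 40 points and 120 with at least 10 CpGs, and losses (439) were 4942, 22 and 19. The body's excess over its flanks was -1.34 with intergenic flanks. The local CpG contrast, 1 or 2 minus over 15 CpGs (-8.72), was -12.97 with a coverage of at least 10. The cause of these moves was not tested. Over 107 values of single CpG or length classes, all were below 0, but the order of the CpG classes changed with a coverage of at least 10 (-7.74, -5.99, -3.08 and -3.71). Leaving out chromosome 6, overlapping genes or extreme coverage moved none of the values beyond its interval among the medians, shares and contrasts by CpG number and length. Libraries could not be left out, with 1 per group, and no paired analysis was possible because the labels carry no replicate numbers. Depth limits single windows most: 40 calls each were required.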
